A study of Mus musculus with 8 samples.

Results

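Skeletal muscle genes were followed in RNA-seq libraries of mouse first molar enamel organs. They comprise 34 genes of the sarcomere, of its calcium supply and of muscle metabolism, chosen by name from the 54532 genes of the deposited count table, and all 34 are listed there. First molars came from wt C57BL/6 pups that had received no treatment, at P5, when ameloblasts are in the secretory stage, and at P12, when they are in the maturation stage. Each library was made from polyadenylated RNA of a pool of several pups, with n = 4 pools at each age, so that the spread between libraries is that between pools. Replicate numbers follow the labels, which give 1, 3, 4 and 5 for P5 and run from 1 to 4 for P12. The P5 libraries held 16574548 to 20262601 counts in total, and those of P12 held 17588152 to 22013456. In each age 1 library stood apart over all genes. Chi-square per degree of freedom between pairs of libraries was 17.1 to 18.5 for pairs with P5 replicate 5 and 4.76 to 5.89 for the other P5 pairs. For P12 it was 31.6 to 74.6 for pairs with replicate 4 and 8.58 to 18.9 for the others. With both libraries left out, an alternative chosen after seeing the data, the 4 members called higher and the 9 called lower at P12 (adjusted p under 0.05 by edgeR) were those called with all libraries. The tissue is labelled as enamel organ cells of epithelial origin, and the 8 ameloblast markers took 23.2% to 25.7% of the counts at P5. At P12 these markers took 3.66% to 6.23%. Dspp, Dmp1, Col1a1 and Col1a2, genes of dentine and mesenchyme, took 4.61% to 5.58% of the counts at P5 and 4.81% to 6.53% at P12.

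A skeletal muscle fibre contracts when thick filaments, built from myosin heavy and light chains, pull on thin filaments of actin, tropomyosin and troponin. Calcium released from the sarcoplasmic reticulum through the ryanodine receptor starts the cycle, and a calcium pump ends it. In rodents the embryonic heavy chain Myh3 and the perinatal chain Myh8 are replaced after birth by the adult fast chains Myh2 (type IIa), Myh1 (IIx) and Myh4 (IIb), and cardiac actin Actc1 gives way to skeletal actin Acta1. Molars lie in the jaw beside muscles of mastication, and ameloblasts are not muscle cells.

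The members took a very small share of the RNA, and their sum differed little between the ages, while its make-up changed. Summed over the 34 members, counts-per-million values (CPM), relative to a library's total, were 75.87, 102.1, 109.1 and 70.23 in P5 replicates 1, 3, 4 and 5. The same sum was 88.26, 105.5, 105.2 and 126.6 in P12 replicates 1 to 4. The ages overlap, and the sum is between 0.00702% and 0.0127% of all counts. The direction of the small difference between the means depended on scaling, since in TMM-normalized counts (described with the tests) the sum was 1936 ± 422 (SD, n = 4) for P5 and 1789 ± 334 (SD, n = 4) for P12. It depended on Myh4 as well. Without this gene, an alternative chosen after seeing the data, the sum was 81.4 ± 18 CPM (SD, n = 4) for P5 and 68 ± 4.19 (SD, n = 4) for P12, and the normalized sum was 1763 and 1138. Acta1 was the most abundant member in all 4 P5 libraries, with 20.8% to 25.7% of the members' counts, and Myh4 in all 4 P12 libraries, with 26.1% to 49.7%. A change in the number of muscle cells and a change in RNA per muscle cell cannot be told apart in such bulk samples.

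Normalized counts are TMM-scaled to the mean effective library size. Tests are those of edgeR's quasi-likelihood fit, with p-values adjusted by Benjamini and Hochberg's method across every gene fitted and called under 0.05. Of the 34 members, 24 had enough counts to be tested. Of these 24, 4 were called higher at P12, namely Myh1, Myh2, Myh4 and Tnni1, against 28.8% of the 16440 genes tested. In the other direction, 9 of the 24 were lower at P12, against 28.4% of all genes tested. Leaving out P5 replicate 4 left 5 of these 9, namely Acta1, Mylpf, Myl1, Myh8 and Ryr1. These shares, 16.7% and 37.5%, are a description of a list chosen by name and were not tested against the background. The median log2 fold change was -0.48 over the 24 members and 0.01 over all genes tested. All P12 libraries lay above all P5 libraries for 4 members (26.0% of all genes tested) and below them for 7 (26.6% of all genes tested). Scaling by the total count alone shifted the median of all genes to 0.38 and the calls over all genes from 4735 higher and 4676 lower to 8885 and 2330. Under that scaling the same 4 members were higher and the same 5 as without P5 replicate 4 were lower.

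**Figure D1:**
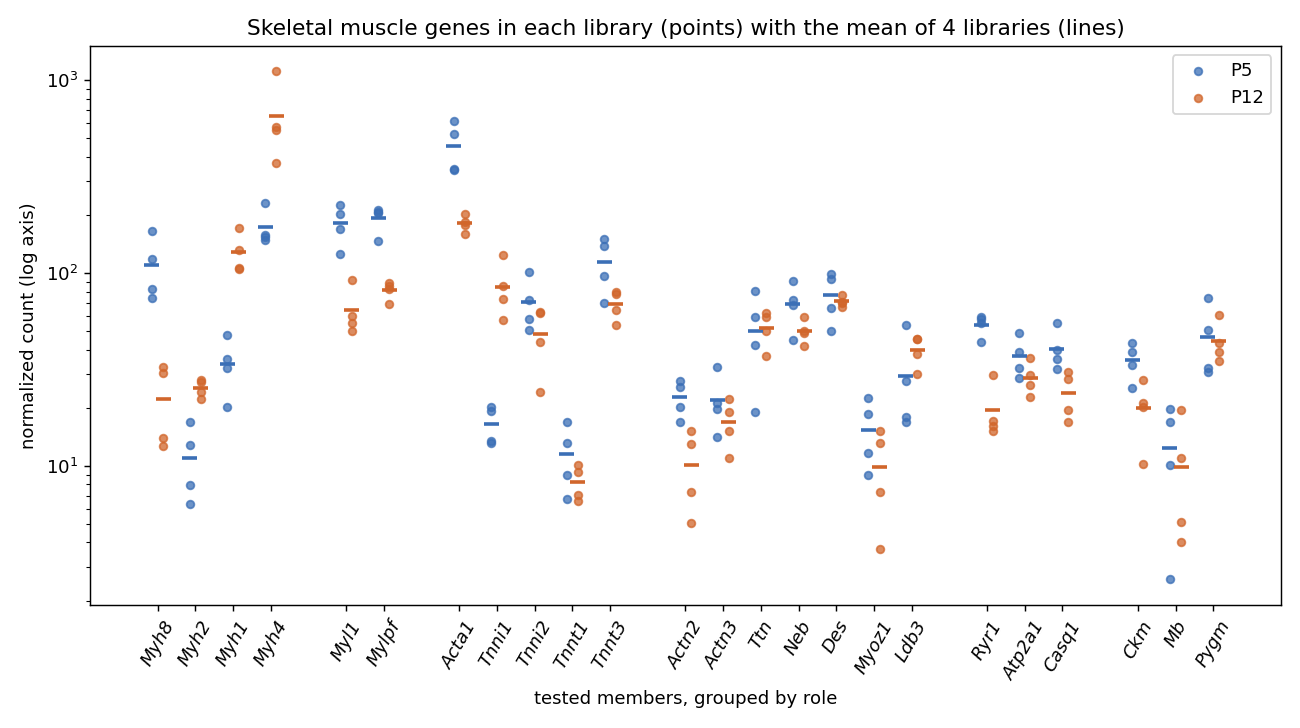
Normalized count on a log axis of the 24 tested members, grouped by role, in each P5 (blue) and P12 (orange) library, with lines at the mean of 4 libraries. Myh1, Myh2, Myh4 and Tnni1 have all P12 points above all P5 points, whereas Myh8, Myl1, Mylpf and Acta1 have them below.

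**Figure D2:**
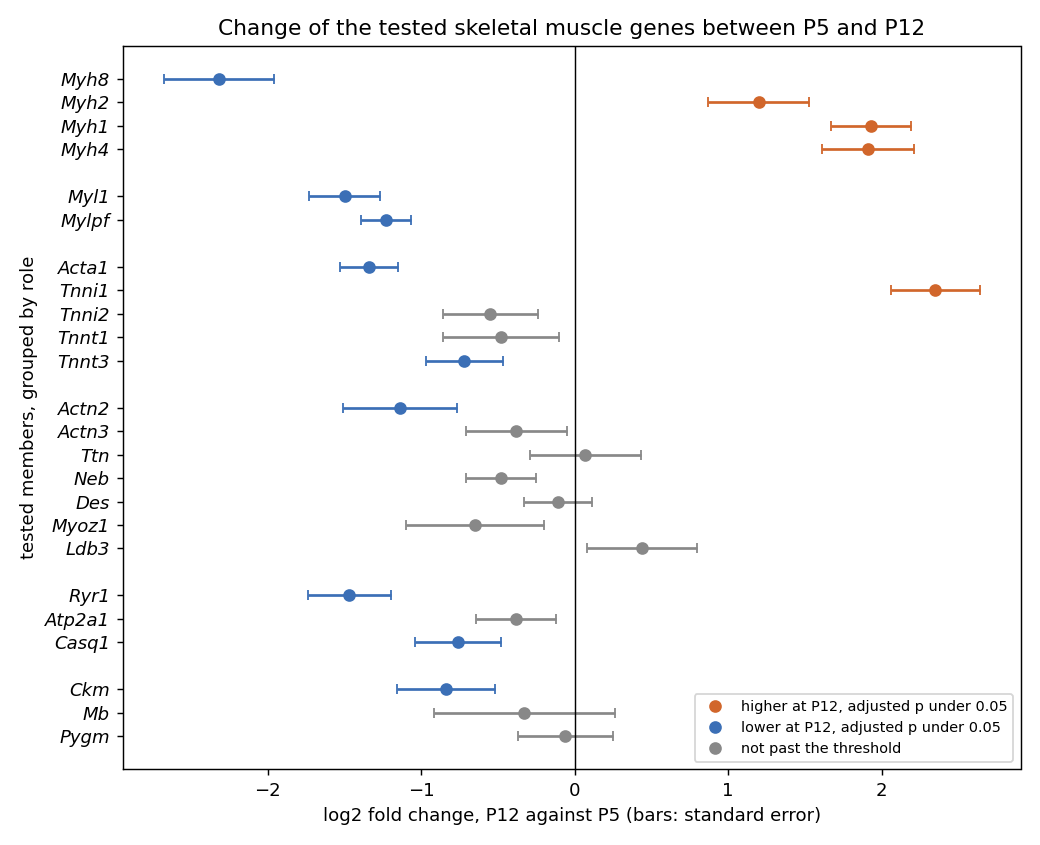
The log2 fold change of P12 against P5 for the 24 tested members, grouped by role, with bars for the standard error and colours for the result of edgeR's test. The 4 members higher at P12 reach from 1.20 to 2.35, and the 9 lower ones from -2.32 to -0.72.

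The plot of normalized counts by library shows that the members did not move as a block, and the plot of log2 fold changes shows opposite directions within the thick filament. All 4 tested myosin heavy chains were called, Myh1, Myh2 and Myh4 higher and Myh8 lower, beside 28.8% and 28.4% of all genes tested. Myh3, Myh2, Myh1, Myh4 and Myh8 lie in this order in a cluster on the forward strand of chromosome 11 of GRCm38. In the deposited coordinates Myh4 (ENSMUSG00000057003) runs from 67238029 to 67260446 and Myh8 (ENSMUSG00000055775) from 67277124 to 67308634. RefSeq promoters of GRCm38.p6, windows of 300 bases over the start of a gene as RefSeq places it, were found for 28 of the 34 members. Myoz1, Tnni2, Neb, Tnnt3, Myot and Actn3 had no entry. Those of 3 heavy chains of the cluster that moved in opposite directions and that of Acta1, the member with the highest level per kilobase, are shown 5′ to 3′ on the gene's strand. Capitals mark E-boxes (CANNTG), the MEF2 site and the CArG box bound by SRF, searched on both strands; the E-box CAGCTG is one form of CANNTG.
Myh4, chr11:67237562-67237861, forward strand: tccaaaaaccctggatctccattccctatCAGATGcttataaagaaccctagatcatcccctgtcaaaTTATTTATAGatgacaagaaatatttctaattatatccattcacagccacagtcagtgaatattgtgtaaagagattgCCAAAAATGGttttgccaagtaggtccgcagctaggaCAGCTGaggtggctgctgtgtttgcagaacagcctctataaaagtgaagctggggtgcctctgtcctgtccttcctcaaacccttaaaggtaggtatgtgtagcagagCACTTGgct
Myh1, chr11:67199852-67200151, forward strand: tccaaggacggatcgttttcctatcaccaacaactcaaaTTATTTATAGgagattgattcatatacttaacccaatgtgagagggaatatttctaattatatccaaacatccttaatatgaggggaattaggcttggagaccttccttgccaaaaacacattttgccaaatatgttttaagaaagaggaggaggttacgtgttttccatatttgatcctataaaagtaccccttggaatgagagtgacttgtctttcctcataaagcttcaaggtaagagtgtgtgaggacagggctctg
Myh8, chr11:67276874-67277173, forward strand: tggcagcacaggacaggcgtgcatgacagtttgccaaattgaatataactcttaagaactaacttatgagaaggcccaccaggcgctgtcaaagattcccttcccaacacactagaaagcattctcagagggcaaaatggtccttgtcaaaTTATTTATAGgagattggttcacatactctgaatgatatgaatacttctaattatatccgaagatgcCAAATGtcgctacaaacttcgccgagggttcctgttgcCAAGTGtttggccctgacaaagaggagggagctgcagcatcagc
Acta1, chr8:123894726-123895025, reverse strand: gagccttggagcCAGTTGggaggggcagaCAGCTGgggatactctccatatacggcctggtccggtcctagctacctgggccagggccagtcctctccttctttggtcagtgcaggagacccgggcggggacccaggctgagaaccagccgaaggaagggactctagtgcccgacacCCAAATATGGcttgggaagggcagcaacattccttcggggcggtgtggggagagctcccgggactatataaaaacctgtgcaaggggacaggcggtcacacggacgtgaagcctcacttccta

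The same letters TTATTTATAG, a match to the MEF2 site, stood in the promoters of Myh4, Myh1 and Myh8, of which the first 2 rose and the last fell. The window of Myh2, which rose as well, held none of the motifs, and that of Myh3 held an E-box but neither a MEF2 site nor a CArG box. Myh4 also held the E-box CAGCTG and a CArG box, as did Acta1, and neither was found in the windows of Myh1 and Myh8. Some of the 28 genes have several starts, which makes 34 promoters. Of these, 18 (52.9%) held CAGCTG, against 16.3% of all 32851 promoters. For CANNTG the shares were 85.3% and 72.3%. A MEF2 site was found in 4 of the 34 (11.8%), those of Myh1, Myh4, Myh8 and Ttn, and in 3.19% of all promoters. A CArG box was found in 5 (14.7%) and in 1.63%. These 5 belong to the 4 genes Myh4, Acta1, Myl3 and Ldb3, since overlapping windows of Ldb3 hold the same letters. Shares are of promoters, so that a site in overlapping windows of a gene is counted in each. A match describes the letters of the window and was not tested for binding.

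Myh8, the perinatal heavy chain, was lower at P12. Its normalized counts were 82.3, 118.5, 164.8 and 74.1 in P5 replicates 1, 3, 4 and 5 and 13.9, 12.7, 32.4 and 30.1 in P12 replicates 1 to 4. Every P12 library lay below every P5 library. On the log2 scale this was -2.32 (SE 0.36, adjusted p = 0.00022 by edgeR).

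Myh3, the embryonic heavy chain, did not pass the filter and was not tested. It had 5, 13, 5 and 14 counts in P5 replicates 1, 3, 4 and 5 and 0, 0, 1 and 0 counts in P12 replicates 1 to 4. All P12 libraries were thus below all P5 libraries, at counts near the floor of 3. Over the 4 libraries of each age, 37 counts stood against 1, a ratio of P12 to P5 per effective library size of 0.0197 (95% exact counting interval 0.000487 to 0.117). Such intervals cover counting error only.

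Myh4, the fast type IIb chain, rose. Normalized counts of 147.8, 154.3, 230.7 and 157.7 were found in P5 replicates 1, 3, 4 and 5, and of 371.7, 550.1, 571.7 and 1111 in P12 replicates 1 to 4. The ages do not overlap, and P12 replicate 4 stood well above the other P12 libraries. With edgeR the log2 change was 1.91 (SE 0.30, adjusted p = 0.00023), and 1.52 without P12 replicate 4. By raw count it ranked between 8914 and 10102 among the genes of a P5 library and between 3427 and 7623 at P12.

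Myh1, the fast type IIx chain, rose by a like amount. It was at 32.1, 35.8, 47.5 and 20.1 normalized counts in P5 replicates 1, 3, 4 and 5 and at 131.2, 104.6, 105.6 and 170.7 in P12 replicates 1 to 4. Again all P12 libraries lay above all P5 libraries, and replicate 4 was the highest at P12. By edgeR it changed by 1.93 log2 units (SE 0.26, adjusted p = 8.3e-05). Of its exonic bases, 8.1% also lie in exons of the antisense gene Myhas.

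Myh2, the fast type IIa chain, rose from a lower level. Raw counts were 10, 15, 6 and 6 in P5 replicates 1, 3, 4 and 5 and 33, 33, 24 and 27 in P12 replicates 1 to 4. Normalized means were 10.97 ± 4.76 for P5 and 25.35 ± 2.60 for P12 (SD, n = 4 each), without overlap. This corresponds to 1.20 log2 units (SE 0.33, adjusted p = 0.0082 by edgeR). Over the 6 libraries with shared replicate numbers it was not called, at 0.97 with the replicate block and 0.95 without it (adjusted p 0.095 and 0.052). An antisense gene, 9430073C21Rik, shares 3.3% of its exonic bases. How the counting used strand is not given in the sources used here, so that reads of antisense partners cannot be told apart.

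Myh7, the slow chain shared with the heart, was close to the floor and was not tested. It had 6, 1, 0 and 3 counts in P5 replicates 1, 3, 4 and 5 and 0, 0, 3 and 0 counts in P12 replicates 1 to 4. The ratio of P12 to P5 was 0.219 (95% exact counting interval 0.0387 to 0.851), and 13.3% of its exonic bases are shared with other genes. The libraries of both ages overlap.

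Because the normalized counts of one heavy chain divided by those of another depend little on library scaling, the log2 ratio of Myh4 to Myh8 was compared directly, with a pseudocount of 1. It was 0.84, 0.38, 0.48 and 1.08 in P5 replicates 1, 3, 4 and 5 and 4.64, 5.33, 4.10 and 5.16 in P12 replicates 1 to 4. Each P12 ratio exceeded each P5 ratio, by more than the spread within either age. The difference of the means was 4.11 (exact permutation test over the 70 arrangements of 8 libraries, two-sided p = 0.0286), the smallest p this design allows. In raw counts, Myh4 had 1.30 to 2.13 counts per count of Myh8 at P5 and 17.63 to 43.47 at P12. The other 3 planned ratios involve a gene at or under 3 counts in all libraries of an age and are given without a test. The log2 ratio of Myh8 to Myh3 was 3.28 ± 0.93 for P5 and 4.19 ± 0.53 for P12 (SD, n = 4 each here and in the following), that of Acta1 to Actc1 was 5.82 ± 0.91 and 7.26 ± 0.51, and that of Chrne to Chrng was 1.59 ± 1.38 and 0.71 ± 0.88. A pseudocount of 5 turned the sign of the difference for the first 2 of these.

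Per kilobase of the longest coding transcript, an added alternative to the deposited gene length, Myh3 and Myh8 together made up 30.3%, 38.6%, 37.0% and 31.8% of the 6 sarcomeric heavy chains in P5 replicates 1, 3, 4 and 5. At P12 they made up 2.53%, 1.79%, 4.45% and 2.20% in replicates 1 to 4. Myh4 was the most abundant chain in every library of both ages, with 45.7% to 57.5% at P5 and 69.0% to 83.2% at P12. Myh1 followed at P12 with 12.6% to 24.1%. With the deposited gene length, which for Myh8 also covers longer transcripts, the share of Myh3 and Myh8 was 19.9% to 27.0% at P5 and 0.952% to 2.46% at P12. The transcripts of this family are alike, and 9.37% of the 75-base windows of Myh4, 11.4% of those of Myh8, 16.2% of those of Myh1 and 16.3% of those of Myh2 occur letter for letter in another of the 6 chains. How the authors' counting treated such reads is not given in the sources used here.

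**Figure D3:**
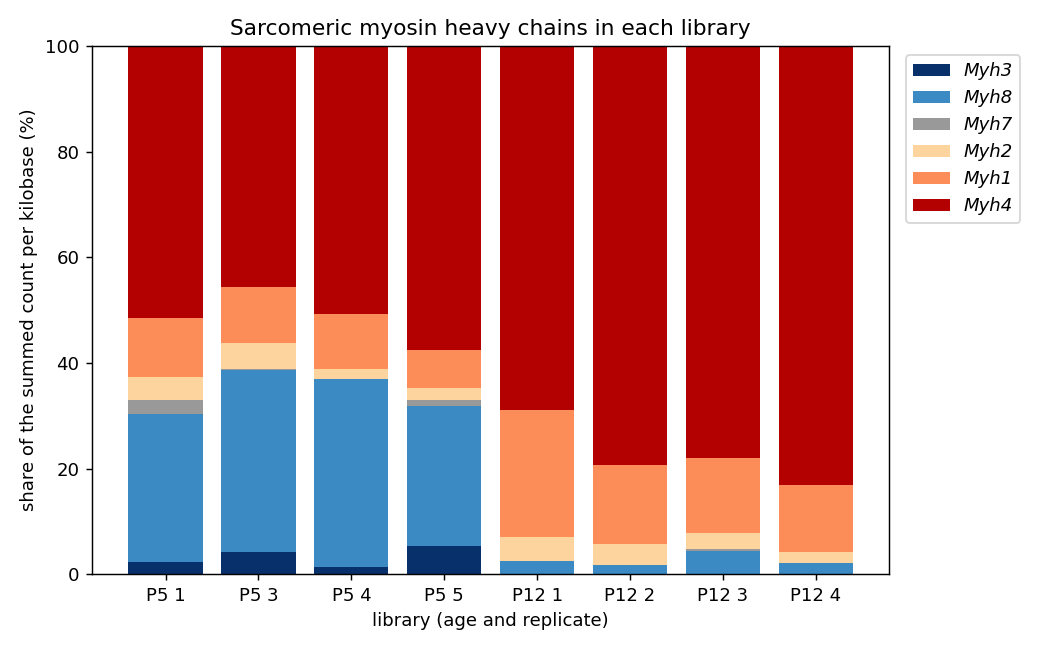
Share of each of 6 sarcomeric myosin heavy chains in their summed count per kilobase of the longest coding transcript, as stacked bars for each library. Myh3 and Myh8 (blues) take 30.3% to 38.6% in the P5 libraries and 1.79% to 4.45% in the P12 libraries.

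The stacked shares show Myh4 first in every library, followed by Myh8 at P5 and by Myh1 at P12. Of the 4 light chains among the members, Mylpf and Myl1 were tested and both fell, beside 28.4% of all genes tested. A further light chain gene, Myl4, named because its values were seen, rose (log2 fold change 0.86, adjusted p = 0.0063 by edgeR). Mylpf, the regulatory light chain of fast fibres, was at 207.0, 211.3, 205.6 and 146.1 normalized counts in P5 replicates 1, 3, 4 and 5. At P12 it was at 82.85, 85.22, 88.96 and 69.28 in replicates 1 to 4. No P12 library reached the P5 range, and P5 replicate 5 stood below the other P5 libraries. Expressed in log2 units, the change was -1.23 (SE 0.16, adjusted p = 4.6e-05 by edgeR). Myl1, the alkali light chain of fast fibres, fell from 181.1 ± 43.4 (SD, n = 4) to 64.2 ± 18.8 (SD, n = 4) normalized counts, also without overlap. That is -1.50 log2 units (SE 0.23, adjusted p = 0.00022 by edgeR). Myl2 and Myl3, light chains of slow and cardiac muscle, had at most 3 and 4 counts in any library and were not tested.

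Counts of Myh4 per count of Mylpf, its partner in fast fibres, were 0.714, 0.730, 1.12 and 1.08 in P5 replicates 1, 3, 4 and 5. They were 4.49, 6.46, 6.43 and 16.04 in P12 replicates 1 to 4. In P12 replicate 4 the log2 normalized count deviated from the mean of its age by 0.89 for Myh4 and by -0.23 for Mylpf. The 30 members other than Myh1, Myh2, Myh4 and Tnni1 summed to 811.6, 931.5, 985.9 and 868.5 normalized counts in P12 replicates 1 to 4, so that replicate 4 did not stand out in them. At P5 the same sum was 1442, 1977, 2085 and 1302 in replicates 1, 3, 4 and 5. This sum was formed after seeing the data by leaving out the 4 members called higher, a choice that itself pulls it down at P12, and the sum of all 34 members overlaps between the ages.

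**Figure D4:**
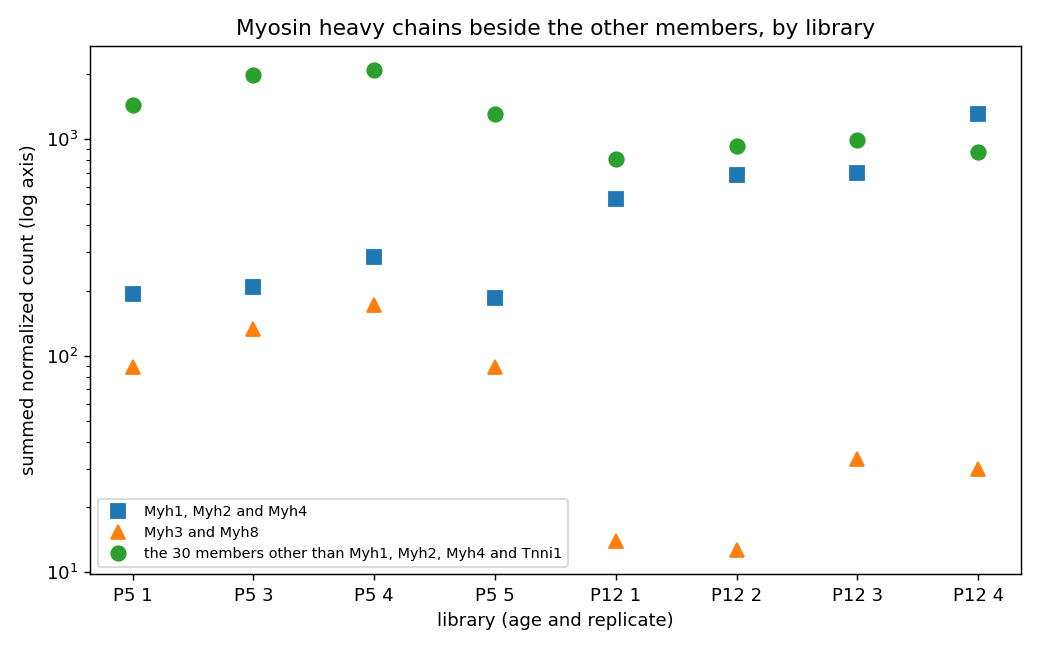
Summed normalized count on a log axis of Myh1, Myh2 and Myh4 (squares), of Myh3 and Myh8 (triangles) and of the 30 members other than Myh1, Myh2, Myh4 and Tnni1 (circles), in each library. The adult chains lie at 184.2 to 286.0 at P5 and 527.1 to 1309 at P12, and the 30 other members, chosen by leaving out the 4 called higher, lie at 811.6 to 985.9 in the P12 libraries.

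The plot of the heavy chains beside the other members shows that P12 replicate 4 was the highest P12 library for the adult chains and within the range of the others for the remaining members. Of the thin filament, Acta1 (ENSMUSG00000031972), skeletal alpha-actin, fell. Its normalized counts were 344.5, 525.4, 613.0 and 344.0 in P5 replicates 1, 3, 4 and 5 and 158.4, 202.5, 177.0 and 184.7 in P12 replicates 1 to 4. The P12 libraries were close together and all below P5. The edgeR estimate was -1.34 log2 units (SE 0.19, adjusted p = 9.6e-05). Actc1, the cardiac actin that is also made in fetal skeletal muscle, had 4, 17, 3 and 5 counts in P5 replicates 1, 3, 4 and 5 and 0, 0, 1 and 0 counts at P12. Its ratio of P12 to P5 was 0.0252 (95% exact counting interval 0.000616 to 0.152).

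The troponins split. Tnni1, the slow inhibitory subunit, rose. It was at 19.3, 13.4, 13.2 and 20.1 normalized counts in P5 replicates 1, 3, 4 and 5 and at 85.8, 123.2, 73.2 and 57.2 in P12 replicates 1 to 4. All P12 libraries exceeded P5, and replicate 4 was the lowest of them, the reverse of Myh4. This was a log2 change of 2.35 (SE 0.29, adjusted p = 3.9e-05 by edgeR). Tnnt3, the fast tropomyosin-binding subunit, was lower, with means of 113.5 ± 37.1 and 68.8 ± 12.3 normalized counts (SD, n = 4 each), although its libraries overlap. Its log2 fold change of -0.72 (adjusted p = 0.027 by edgeR) lost the call without P5 replicate 3, P5 replicate 4 or P12 replicate 1, at adjusted p-values of 0.081, 0.088 and 0.070, and under total-count scaling, at 0.23. For Tnni2, the fast inhibitory subunit, the values were 70.7 ± 22.6 and 48.2 ± 18.2 (SD, n = 4 each; adjusted p = 0.16 by edgeR). For Tnnt1, the slow tropomyosin-binding subunit, they were 11.5 ± 4.53 and 8.26 ± 1.71 (SD, n = 4 each; adjusted p = 0.30 by edgeR). Tnnc1, the calcium-binding subunit of slow and cardiac fibres, had 4 to 13 counts at P5 and 4 to 15 at P12. Tnnc2, the calcium-binding subunit of fast fibres, had 0 counts in all 8 libraries, where 3 counts correspond to between 0.136 and 0.181 CPM. Of its exonic bases, 74.0% also lie in exons of Ube2c on the opposite strand, and the part of this overlap in its count of 0 was not tested.

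Among the 8 genes of the Z-disc and of the elastic and intermediate filaments, 7 were tested and 1 was called, lower at P12 as were 28.4% of all genes tested. Actn2, an alpha-actinin that anchors thin filaments, fell from 22.6 ± 4.96 to 10.1 ± 4.75 normalized counts (SD, n = 4 each), a log2 fold change of -1.14 (adjusted p = 0.021 by edgeR). Without P5 replicate 1, P5 replicate 4 or P12 replicate 1 its adjusted p was 0.053, 0.060 and 0.058, and under total-count scaling 0.091. The other 6 did not pass the threshold, with adjusted p-values between 0.097 and 0.88 by edgeR. They were Actn3, the alpha-actinin of fast fibres (log2 fold change -0.38), the giant spring protein gene Ttn (0.07), Neb, a ruler of thin filament length (-0.48), the intermediate filament gene Des (-0.11, but 0.26 under total-count scaling), the calcineurin-binding Myoz1 (-0.65) and Ldb3 (0.44), a Z-disc adaptor. The values of Ttn ranged from 19.05 to 80.4 at P5 and from 37.1 to 62.3 at P12. Without P5 replicate 3, Ldb3 had a log2 fold change of 0.93 and an adjusted p of 0.026. Without P5 replicate 1, Neb had one of -0.64 with an adjusted p of 0.025. Myot, a Z-disc protein that binds actinin, was not tested, and it had 7 to 16 counts at P5 and 3 to 6 at P12. With DESeq2, which fits genes of low count too, Myot, Cav3 and Myh3 were called lower, at adjusted p-values of 0.0078, 0.046 and 6.3e-05. Casq1 and Ckm, described below, lost their calls with it (0.051 and 0.054). By edgeR without a filter on low counts, Myot, Cav3 and Myh3 were called lower as well (adjusted p 0.013, 0.04 and 0.00012). With 1 library left out, edgeR called Myot lower without P5 replicate 1 and without P12 replicate 1, 2, 3 or 4. It was not called without P5 replicate 3, 4 or 5.

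Of the 5 genes of excitation and calcium release, 3 were tested and 2, Ryr1 and Casq1, fell, beside 28.4% of all genes tested, and Casq1 kept its call in 8 of 18 alternative fits. Ryr1, the calcium release channel, had normalized counts of 59.1, 43.6, 58.0 and 55.0 in P5 replicates 1, 3, 4 and 5 and of 16.1, 15.2, 29.65 and 17.1 in P12 replicates 1 to 4. The ages are apart, and P12 replicate 3 stood above the other P12 libraries. On a log2 scale Ryr1 changed by -1.47 (SE 0.27, adjusted p = 0.00067 by edgeR). Casq1, the calcium store protein of fast fibres, was at 40.5 ± 10.1 and 23.8 ± 6.69 normalized counts (SD, n = 4 each), a log2 fold change of -0.76 (adjusted p = 0.037 by edgeR). Atp2a1, the fast calcium pump SERCA1, was at 37.15 ± 8.90 and 28.7 ± 5.73 (SD, n = 4 each; adjusted p = 0.23 by edgeR), with 21.9% of its exonic bases shared with another gene. Cav3, a caveolin of the muscle membrane, and Chrna1, the alpha subunit of the endplate acetylcholine receptor, were not tested. Cav3 had 2, 18, 5 and 5 counts in P5 replicates 1, 3, 4 and 5 and 2 to 3 at P12. Chrna1 had 0 to 7 at P5 and 4 to 8 at P12.

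In energy metabolism and turnover, Ckm, the muscle creatine kinase, was at 35.4 ± 7.82 and 19.85 ± 7.23 normalized counts (SD, n = 4 each), a log2 fold change of -0.84 (adjusted p = 0.042 by edgeR). The calls of Casq1 and Ckm were the least firm among the 13 called members, which were kept in 8 and 9 of 18 alternative fits. Casq1 lost its call without P5 replicate 1, 3 or 4 (adjusted p 0.066, 0.13 and 0.051 by edgeR) and without P12 replicate 2 or 3 (0.10 and 0.099). Ckm lost it without P5 replicate 1, 3 or 4 (0.070, 0.10 and 0.11) and without P12 replicate 1 or 2 (0.098 and 0.075). Both were lost with DESeq2 (0.051 and 0.054), without a filter on low counts (0.071 and 0.069) and under total-count scaling (0.24 and 0.20). Over the 6 libraries with shared replicate numbers Casq1 was lost with the replicate block and without it (0.13 and 0.075), and Ckm without it (0.057). Mb, the oxygen store myoglobin, was at 12.3 ± 7.68 and 9.89 ± 7.07 (SD, n = 4 each; adjusted p = 0.65 by edgeR), and Pygm, the muscle glycogen phosphorylase, at 46.7 ± 20.1 and 44.5 ± 11.3 (SD, n = 4 each; adjusted p = 0.88 by edgeR). The order of the means of Mb and Pygm turned under total-count scaling, with log2 fold changes of 0.04 and 0.32. Trim63, a ubiquitin ligase of muscle atrophy, had 0, 0, 1 and 6 counts in P5 replicates 1, 3, 4 and 5 and 4 to 12 at P12, and was not tested. Other genes share 31.9% of the exonic bases of Mb, and an antisense gene shares 15.5% of those of Ckm.

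Per kilobase of the deposited gene length, the order of mean normalized levels at P5 was led by Acta1 at 297.4, Mylpf at 181.3, Myl1 at 87.3, Tnnt3 at 71.7 and Tnni2 at 47.2, with Myh4 at 28.7 in place 6. At P12 the order was Acta1 at 117.6, Myh4 at 108.3, Mylpf at 76.8, Tnnt3 at 43.45 and Tnni2 at 32.2. The means of Acta1 and Myh4 at P12 differed by less than the spread of Myh4 over its libraries. Tnni1 moved from place 23 to place 7 and Myh1 from 20 to 8.

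A further list of 72 skeletal muscle genes, of which 38 were tested, held 15 that were higher (39.5%) and 8 that were lower at P12 (21.1%), with a median log2 fold change of 0.14, against 28.8% and 28.4% of all genes tested and a median of 0.01. Under total-count scaling 21 were higher and 4 were lower, against 8885 and 2330 of the 16440 genes. Its summed CPM were 353.5 to 362.8 at P5 and 501.6 to 556.6 at P12, without overlap, led by Tpm3 in each library. Several of its most abundant genes are also made outside muscle, among them Tpm3 and Pfkm. The regulators of the myogenic lineage were at or near 0, since Pax7, Myf5, Myod1, Myf6, Mymk and Mymx, which mark satellite cells, myoblasts and fusing myocytes, had at most 4 counts in any library. Myog, which starts terminal differentiation, had 6, 11, 2 and 4 counts in P5 replicates 1, 3, 4 and 5 and 1 to 4 at P12. Mef2c, a transcription factor of muscle, bone and vessels, was at 738.8 ± 61.4 and 639.4 ± 88.6 (SD, n = 4 each; adjusted p = 0.11 by edgeR).

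In the thick filament and M-band, Myom3, an M-band protein, went from 9, 8.94, 9.23 and 2.12 normalized counts in P5 replicates 1, 3, 4 and 5 to 590.9, 450.6, 627.3 and 609.4 in P12 replicates 1 to 4. This was the largest difference of the list, at 6.29 log2 units (SE 0.24, adjusted p = 4.5e-09 by edgeR), and it exceeded that of every tested member. The P12 mean of Myom3, 569.6 normalized counts, lay between those of Acta1, 180.6, and Myh4, 651.3. Which cells the Myom3 counts came from was not tested. Log2 fold changes are given in parentheses for the genes that follow. The related Myom1 (-0.39) and the light chain gene Myl6b (-0.14) did not pass the threshold. Mybpc1 (-1.36) and Mybpc2 (-1.14), which encode myosin-binding proteins of slow and fast fibres, fell. Mylk2 (3.52, adjusted p = 0.00025 by edgeR), named because its values were seen, rose. It had 3, 1, 0 and 1 counts in P5 replicates 1, 3, 4 and 5 and 22, 30, 20 and 13 in P12 replicates 1 to 4. In the thin filament, the tropomyosin gene Tpm3 (0.30) and Tnnt2 (0.85), a troponin of cardiac and fetal muscle, rose, and Klhl41 (-0.10), a stabilizer of nebulin, did not pass the threshold. Of the Z-disc and costamere genes, Pdlim3 (0.68) and Ankrd23 (0.76, with 78.2% of its exonic bases shared with another gene and an adjusted p of 0.05 when rounded) rose.

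Of the genes of the triad, where the surface membrane meets the calcium store, 9 were tested, 4 of which rose and 3 fell, beside 28.8% and 28.4% of all genes tested. The gene with the most counts was Stac3. Stac3 couples the voltage sensor to the release channel, and it was at 764.9, 721.1, 777.7 and 971.7 normalized counts in P5 replicates 1, 3, 4 and 5 and at 289.6, 301.2, 354.0 and 278.1 in P12 replicates 1 to 4. The ages do not overlap, and the difference was -1.40 log2 units (SE 0.11, adjusted p = 1e-06 by edgeR). At P5 the mean of Stac3, 808.8 normalized counts, was above that of Acta1, 456.7. Means of Ryr1 and Cacna1s at P5 were 53.9 and 11.5. Which cells the Stac3 counts came from was not tested. The calcium store gene Casq2 (-0.75) and Sln (-1.47), a small inhibitor of the calcium pump, were the other 2 that fell. Higher were Cacna1s (2.42), the voltage sensor, Jph1 (0.72), which ties the membranes together, the calcium buffer Pvalb (1.65) and the potassium channel Kcna7 (1.15), named because their values were seen. Jph2 (0.70, adjusted p = 0.054 by edgeR), a relative of Jph1, did not pass the threshold. At the endplate, Chrnd had 0 counts in all libraries, Chrng at most 1, Chrne at most 8 and Musk at most 11, and Chrnb1, the beta subunit of the receptor, was at 65.1 ± 21.5 and 73.1 ± 5.25 normalized counts (SD, n = 4 each; adjusted p = 0.59 by edgeR). Of the metabolic genes, Eno3 (-0.51), the muscle enolase, and Phkg1 (-1.51), a subunit of phosphorylase kinase, fell, whereas Pfkm (0.09), Phka1 (-0.05) and Fbxo32 (0.12) did not pass the threshold. Cox6a2 (3.23) and Cox7a1 (2.0), muscle forms of cytochrome oxidase subunits, and Fbp2 (3.64), the muscle fructose bisphosphatase, were higher at P12 and are named here because their values were seen.

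Markers of other tissues moved with age as well, and their calls stand beside 28.8% higher and 28.4% lower of all genes tested. All 5 tendon markers, Scx, Tnmd, Mkx, Fmod and Thbs4, were called higher at P12, and their summed CPM were 40.1, 33.5, 41.0 and 32.5 in P5 replicates 1, 3, 4 and 5. In P12 replicates 1 to 4 they were 330.5, 260.8, 171.5 and 158.6, with Fmod the gene with the most counts in each P5 library and Thbs4 in each P12 library. All 6 markers of oral mucosa, Krt13, Krt4, Krt6a, Krt6b, Krt76 and Sprr3, were called higher too. They summed to 74.87, 63.27, 64.13 and 39.19 CPM in P5 replicates 1, 3, 4 and 5 and to 3042, 3690, 2365 and 696.3 in P12 replicates 1 to 4, with Krt6a the gene with the most counts in each library. P12 replicate 4, where Myh4 was highest, was thus the lowest P12 library for both lists. Of the 8 smooth muscle markers 7 were tested and 3 were higher, namely Acta2, Cnn1 and Actg2. Their sums, led by Smtn, were 78.52, 85.5, 85.98 and 106.8 CPM in P5 replicates 1, 3, 4 and 5 and 150.3, 124.0, 121.9 and 108.7 in P12 replicates 1 to 4, and Myocd had at most 1 count. Of the 6 cardiac markers 2 were tested and Ryr2 was lower (log2 fold change -2.01). Ryr2 had the most counts of them except in P12 replicates 1 and 2, where Tnni3 had. Their sum was 2.59, 3.84, 3.74 and 4.74 CPM in P5 replicates 1, 3, 4 and 5 and 1.73, 1.74, 2.77 and 2.79 in P12 replicates 1 to 4, and Nppa was at 0 in all libraries. The 4 fat markers summed to 2.06, 2.96, 2.84 and 1.18 CPM in P5 replicates 1, 3, 4 and 5 and to 2.32, 3.38, 3.88 and 2.33 in P12 replicates 1 to 4. Fabp4, the only one tested, gave 66.7% to 95.1% of these counts and was not called. Of the 5 Schwann cell markers 3 were higher and Pmp22, with the most counts, was lower. Their sums were 143.9, 139.6, 153.1 and 114.8 CPM in P5 replicates 1, 3, 4 and 5 and 194.2, 188.6, 172.4 and 141.0 in P12 replicates 1 to 4, whereas in normalized counts the P12 mean, 2903, was below that of P5, 2987. Of the 4 bone markers Ibsp, Sp7 and Alpl were higher. Bone marker sums were 1329, 1330, 1196 and 1183 CPM in P5 replicates 1, 3, 4 and 5 and 2492, 2509, 2358 and 2153 in P12 replicates 1 to 4, led by Bglap except in P12 replicate 4, where Alpl led. The ameloblast list held 4 genes that were higher at P12 (Klk4, Amtn, Odam and Slc24a4) and 4 that were lower (Amelx, Ambn, Enam and Mmp20), with Amelx leading at P5 and Odam or Ambn at P12. In the mesenchyme list, led by Col1a1, Dmp1 and Col1a2 were lower and the other 2 were not called. Markers named here beyond the most abundant of each list were named after their values were seen. The part of these tissues in the differences of the members was not tested.

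**Figure D5:**
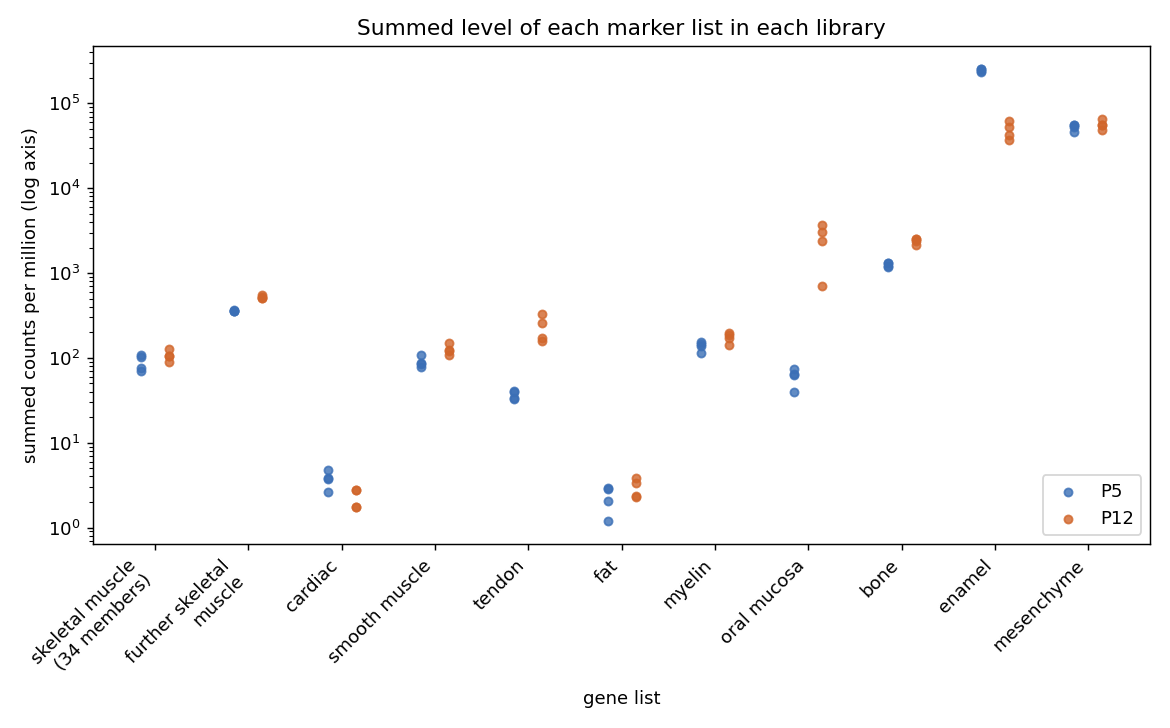
Summed CPM on a log axis of each gene list in each P5 (blue) and P12 (orange) library. The 34 members lie at 70.23 to 126.6 with both ages overlapping, and the tendon, oral mucosa and further skeletal muscle lists are among those higher in all P12 libraries.

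The plot of the marker lists shows that the members' sum overlaps between the ages. The sums of tendon, oral mucosa, bone, smooth muscle and the further skeletal muscle list were higher in every P12 library than in any P5 library, and that of the ameloblast list was lower. In normalized counts the smooth muscle sums overlap, at 1712 to 2292 for P5 and 1919 to 2426 for P12. As a description over 8 libraries, with the mean of each age subtracted, the genes outside all lists whose log2 normalized counts followed the summed members most closely included Amigo1, Hs3st3a1, Rrp1, Clpb, Ccng2, Timm22, Mynn, Socs4 and Polr3a. Their Pearson r lay between 0.929 and 0.961, among the 10 highest of 11295 genes that averaged 100 normalized counts or more, so that they are the extremes of many values. All points come from the same 8 libraries, and the P12 sum is led by Myh4.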

How the data were processed

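RNA-seq libraries of first molar enamel organs from wt pups at P5 and P12 were compared, 4 pools at each age. The authors deposited whole-number read counts per gene without normalization, with gene coordinates and lengths. The submitters' notes name CASAVA and mm39, whereas 53585 of the 54532 genes have the coordinates of GENCODE M21 for GRCm38, which are used here. The aligner, the counting program and its use of strand are not given in the sources used here. Libraries were grouped by their titles. The 12 pairs of libraries within an age all differed by more than counting noise, with a lowest chi-square of 4.76 per degree of freedom.

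The members and lists were chosen with earlier results of these data known. Counts were fitted in R 4.3.3 with edgeR 4.0.16 (filterByExpr, TMM, glmQLFit, glmQLFTest) and Benjamini-Hochberg adjustment over 16440 genes at 0.05. Alternatives were DESeq2 1.42.0, limma-voom (limma 3.58.1), other scalings, filters and thresholds, each library left out, and a block on replicate number. The edgeR, DESeq2 and limma-voom fits were tested on simulated counts, where DESeq2 made more false calls than the other tools. The simulated counts were drawn with edgeR's own dispersion estimates and held few changed genes. There edgeR called 182 of 16234 genes, a far smaller share than in the data. The simulation therefore cannot rank the tools for these data. Of the 4 planned ratios, 1 had enough counts for the exact permutation test (scipy 1.17.1), so that the planned adjustment over 4 ratios does not arise. Shared exonic bases came from GENCODE M21, and promoters from RefSeq. Named genes are all members; the genes of the ratios; of the further list the 3 most abundant tested genes of each role, the myogenic regulators, the endplate genes and genes against the list's main direction; the most abundant gene and those at 0 of each marker list; and the 10 genes most correlated with the summed members. Depth sets a floor of 3 counts per library. The staining and cell culture experiments of the study are not analysed here. Some genes that the rule for named genes takes are not reported here.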

Additional observations from a re-analysis of the deposited data

Results flagged for a closer look

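In 7 of 76 groups of 4 libraries 1 library lay far from the other 3, where chance gives about 1 in 20, or 3.8. Normalized counts of Myh4 were 230.7 in P5 replicate 4, against 147.8 to 157.7 in the other P5 libraries. For Mylpf, P5 replicate 5 was low at 146.1, against 205.6 to 211.3. Ryr1 was at 29.65 in P12 replicate 3, against 15.2 to 17.1. The remaining 4 concern 0 to 4 raw counts. These are Myh3 at 0.927 and Myh7 at 2.78 in P12 replicate 3, both against 0 in the others, Myl2 at 3.01 in P12 replicate 4 against 0.733 to 0.927, and Myl3 at 4.47 in P5 replicate 3 against 0.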

How the results depend on the processing

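Of the 34 members, 10 had too few counts to be tested. In each of 18 alternative fits Myh1, Myh4, Tnni1, Myh8, Myl1, Mylpf, Acta1 and Ryr1 were called in the direction given. Leaving out P5 replicate 5 and P12 replicate 4 together, chosen after seeing the data, gave 4 members higher and 9 lower.

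Scaling by the total count gave 8885 genes higher and 2330 lower, 5 members lower and 4 further genes lower, with Des at 0.26, Mb at 0.04 and Pygm at 0.32, the median of all genes then being 0.38. With at least 10 counts in every library, which tests fewer genes, 7 further genes were higher and 4 lower. An adjusted p under 0.01 left 5 members lower. At an adjusted p under 0.05, requiring 1 log2 unit of change left 1864 genes higher and 1677 lower, and 9 and 5 further genes. With 1 library left out, 5 to 10 members were lower, the 5 without P5 replicate 4. The log2 ratio of Myh4 to Myh8 then differed by 3.94 to 4.35, at the smallest p 3 libraries against 4 allow, 0.0571 (exact permutation test). With a pseudocount of 5 the difference was -0.56 for Myh8 to Myh3 and -0.04 for Acta1 to Actc1, since both lower genes are near 0. The log2 difference of the summed members was 0.27 in CPM, -0.11 in TMM-normalized counts and -0.34 as a mean of log2 normalized counts. Again in CPM and chosen after seeing the data, it was -0.23 without Myh4 and -0.52 without Myh1, Myh2, Myh4 and Tnni1, the members called higher; in normalized counts the means differ by more, at 1763 and 1138 and at 1702 and 899.4 for P5 and P12. Pygm was at 0.02 by limma-voom. Both libraries out gave -0.27 for Ttn and 0.10 for Mb. With 1 library left out, Ttn ranged from -0.22 to 0.38, Des from -0.28 to 0.03 and Pygm from -0.24 to 0.24. Except where stated, the cause was not tested.

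The replicate block over 6 libraries gave 3 members higher and 9 lower, and the same 6 libraries without it 3 and 7; Ttn was at -0.19 in both. Myh2 was not called in either (adjusted p 0.095 and 0.052 by edgeR), nor was Casq1 (0.13 and 0.075), and Tnni2 was called with the block (0.043). Deviations from the age mean, over all tested genes, had correlations of 0.0447, 0.0051 and -0.0361 between same-numbered libraries. Between libraries of different number they ranged from -0.0679 to 0.0618. The labels do not say what the numbers stand for, and a shared origin that touches some genes cannot be seen in this way.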
